A study of Mus musculus with 12 samples.

Results

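The glutathione peroxidases are a small family of enzymes that reduce hydrogen peroxide and lipid hydroperoxides. The 7 members described here, Gpx1, Gpx2, Gpx3, Gpx4, Gpx6, Gpx7 and Gpx8, were taken by gene symbol from the 57010 genes of the deposited liver table, and all 7 were found. Each was measured by RNA sequencing as TPM, a relative transcript abundance that corrects for the length of each transcript and sums to one fixed total per library. The treated animals were 6 male wild-type C57BL/6J mice that received selenium-enriched Aspergillus oryzae A02, a food fungus, by daily gavage in saline at 0.5 mg selenium per kg, and they were set against 6 untreated mice of the same sex, strain and genotype, with 1 liver library per mouse. Both groups were on a normal diet and were 6 weeks old at assignment, which followed an acclimatization of 7 days. The protocol counts 10 mice per group, and the series text gives 8 weeks of treatment while the sample descriptions speak of 14 weeks. Fungus and selenium came together and the labels name no gavage of fungus without selenium, so the effects of the 2 cannot be told apart. The tissue label is liver and the cell label is hepatocyte. The groups are called selenium and control below, and each library is named by its group and replicate number.

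In the catalytic cycle of a glutathione peroxidase, an active-site residue is oxidized by the peroxide and is then reduced again, in most members by glutathione. In some members that residue is selenocysteine, which the ribosome inserts at a UGA codon that would otherwise end translation, and in others it is cysteine. Liver holds a large store of the selenium-containing forms, and Gpx1 is known as the selenoprotein whose mRNA and activity fall most readily when selenium is scarce.

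The codon at the active site divides the family, so its surroundings are shown for all 7 members. Each stretch holds 45 coding bases, 5′ to 3′ on the coding strand, read from the GENCODE M21 transcript numbered 201 of each gene. The capitals mark the codon of the active-site residue, TGA for selenocysteine and TGT or TGC for cysteine, at the position annotated as selenocysteine or aligned with it.
Gpx1: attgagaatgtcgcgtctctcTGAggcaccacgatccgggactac
Gpx2: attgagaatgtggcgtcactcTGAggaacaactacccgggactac
Gpx3: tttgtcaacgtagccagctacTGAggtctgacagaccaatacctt
Gpx4: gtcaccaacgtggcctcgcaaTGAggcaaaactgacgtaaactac
Gpx6: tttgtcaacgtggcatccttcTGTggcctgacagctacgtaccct
Gpx7: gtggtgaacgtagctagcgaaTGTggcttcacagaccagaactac
Gpx8: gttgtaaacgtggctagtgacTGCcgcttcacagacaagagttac

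Thus 4 members carry the selenocysteine codon and 3, Gpx6, Gpx7 and Gpx8, carry a cysteine codon in its place. Mouse Gpx6 differs in this from human GPX6, which is a selenoprotein. Over the 45 bases Gpx2 matched Gpx1 at 39 positions, Gpx4 and Gpx7 at 25, Gpx6 and Gpx8 at 23, and Gpx3 at 21. On the GRCm38 build, which is not the build of the expression table, the stretches lie within single coding exons. They are at chr9:108339430-108339474 on the plus strand for Gpx1 (exon 1 of 2), chr12:76795235-76795279 on the minus strand for Gpx2 (exon 1 of 2) and chr11:54907235-54907279 on the plus strand for Gpx3 (exon 2 of 5). That of Gpx4 is at chr10:80054716-80054760 on the plus strand (exon 3 of 7) and that of Gpx6 at chr13:21313756-21313800 on the plus strand (exon 2 of 5). Those of Gpx7 and Gpx8 are at chr4:108403409-108403453 and chr13:113045640-113045684, both on the minus strand in exon 2 of 3. In these transcripts the codon is number 47 of 201 in Gpx1, 40 of 190 in Gpx2, 73 of 226 in Gpx3, 129 of 253 in Gpx4, 73 of 221 in Gpx6, 56 of 186 in Gpx7 and 79 of 209 in Gpx8. Which transcript forms of each gene the livers expressed was not examined.

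Some libraries stood apart from the rest. Hepatocyte markers were high in every library, with 8 marker genes summing to 29790 to 44500 TPM in selenium and 29800 to 47810 TPM in control livers. Control 6, labelled liver, also held 5321 TPM of 10 lung epithelium markers, against 0.71 to 1.84 TPM in the other 11 libraries. Its club cell secretoglobin Scgb1a1 was at 4362 TPM and its surfactant gene Sftpc at 788 TPM, both of which were listed at 0 in the other libraries. Control 6 also had the highest sum of 6 erythroid markers, at 4271 TPM against 378 to 1494 TPM elsewhere, most of it globin genes. The erythroid marker Alas2 was not highest there, at 68.4 TPM against up to 76.6 TPM elsewhere. Selenium 3 and control 5 had the highest sums of 6 cholangiocyte markers, 133 and 269 TPM, most of it the secreted matrix gene Spp1, against 16.03 to 37.2 TPM in the others. The same 2 libraries had the highest sums of 6 neutrophil markers, most of it S100a8 and S100a9. Of the other neutrophil markers, Mmp8 was highest in selenium 3 (0.65 TPM), and Ltf, Ngp and Retnlg were highest in other libraries. Selenium 6 held 16.03 TPM of 6 pancreatic acinar markers. The clock gene Dbp was at 31.5 and 53.6 TPM in selenium 1 and 5 and at 15.7 and 28.5 TPM in controls 5 and 6, against 0.72 to 1.44 TPM in the other 8. The log2 changes of the members are given over all 12 libraries, without control 6, and without control 6 and the other 3 libraries high in such markers, selenium 3 and 6 and control 5. In the last setting the high-Dbp livers left are selenium 1 and 5 and no control, so it mixes treatment with the level of Dbp.

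The members covered a wide range of levels, and their order was led by 2 selenocysteine forms. By median TPM over the 12 libraries, Gpx1 came first at 1981, then Gpx4 at 313, Gpx3 at 2.38, Gpx8 at 0.73, Gpx7 at 0.56, Gpx6 at 0.125 and Gpx2 at 0.07. Gpx1 lay above Gpx4 and Gpx4 above Gpx3 in all 12 libraries, without overlap of their ranges. Among 9980 genes with at least 1 TPM in 6 or more libraries, Gpx1 ranked 56, Gpx4 ranked 271 and Gpx3 ranked 5667 by mean TPM. From Gpx3 downward the ranges of neighbours overlapped: Gpx3 exceeded Gpx8 in 12 libraries, Gpx8 exceeded Gpx7 in 6, Gpx7 exceeded Gpx6 in 12 and Gpx6 exceeded Gpx2 in 8.

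**Figure D1:**
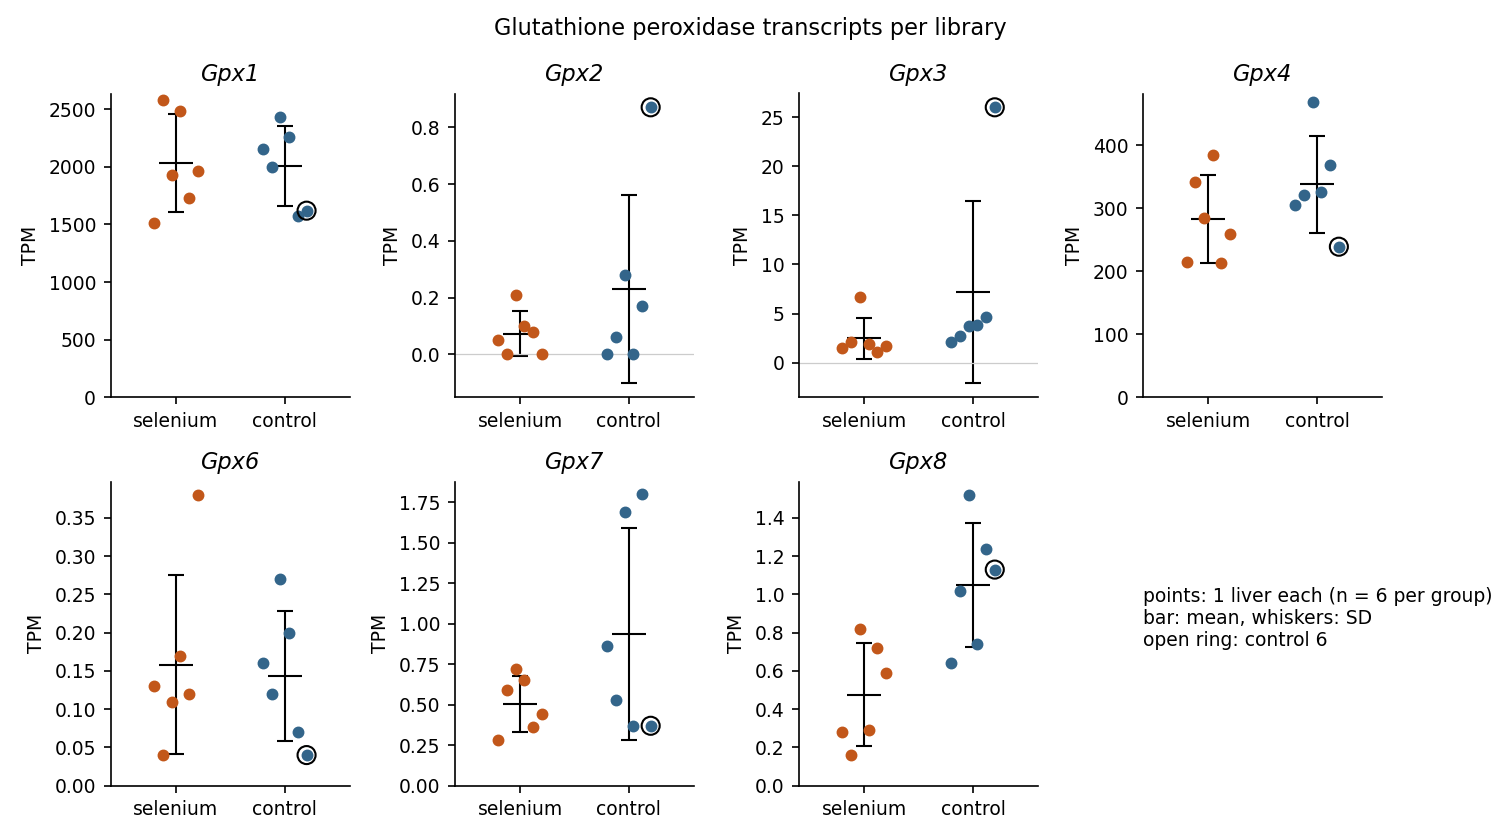
TPM of each of the 7 glutathione peroxidases (vertical axes, scaled per gene) in 6 selenium and 6 control livers. Each point is 1 library, the bar is the mean and the whiskers are the SD. The open ring marks control 6, the highest library for Gpx2 (0.87 TPM) and Gpx3 (26.0 TPM).

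Of the whole family, 3 members passed that filter on low values, Gpx1, Gpx3 and Gpx4, each with at least 1 TPM in all 12 libraries. The other 4 are described by their TPM and by a fit without a filter. Differences were tested with limma on log2(TPM + 1), selenium minus control, with Benjamini-Hochberg adjustment over all genes. Of the 9980 genes tested, 33 (0.331%) passed an adjusted p of 0.05, 2 higher (0.02%) and 31 lower (0.311%) with selenium, and 0 of the 3 members did. Also 0 of the 3 had an unadjusted p under 0.05 in limma or in an exact permutation test per gene, while in limma 700 genes (7.01%) were higher and 1142 (11.4%) lower at that level. Without control 6 the fit called 171 genes (1.71%), 56 higher (0.561%) and 115 lower (1.15%), and again 0 of the 3 members. Without the 4 libraries high in markers of other cell types it called 25 genes (0.251%), 5 higher (0.0501%) and 20 lower (0.2%), and 0 of the 3 members. For a gene with low TPM, the added 1 makes the log2 change smaller than that of the TPM themselves. In whole liver, fewer cells of a type and less RNA per cell cannot be told apart.

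Gpx1 encodes the abundant peroxidase of the cytosol and mitochondria. Its lowest, median and highest TPM were 1513, 1946 and 2584 in selenium livers and 1573, 2077 and 2436 in control livers. The groups overlapped over almost their whole ranges, and the lowest and the highest library of the series were both selenium libraries. The means were 2034 ± 422 TPM with selenium and 2008 ± 350 TPM in controls (SD, n = 6 each). The log2 change was 0.012 (SE 0.16), with a 95% interval of -0.34 to 0.36 (limma adjusted p = 0.981). Without control 6 it was -0.046, and without all 4 libraries high in markers of other cell types it was -0.12, so its sign was not settled.

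The level of Gpx1 followed another split of the libraries. The 4 livers with high Dbp, selenium 1 and 5 and controls 5 and 6, had 1513 to 1726 TPM of Gpx1, and the 8 others had 1926 to 2584 TPM. These ranges did not overlap, a pattern seen after the values were known, which 98 of the 9980 genes (0.982%) shared in the same direction. Among the 8 livers with low Dbp, Gpx1 averaged 2241 TPM in 4 selenium libraries and 2213 TPM in 4 controls. The fit without the 4 libraries high in markers of other cell types keeps selenium 1 and 5 but leaves out controls 5 and 6. Its log2 change of -0.12 for Gpx1 therefore mixes treatment with this split. The labels give no hour of sampling, and the part of daily time in this split was not tested.

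Gpx4 encodes the phospholipid hydroperoxide peroxidase, known for protecting membranes against ferroptosis, a form of cell death driven by lipid peroxidation. Its lowest, median and highest TPM were 213, 272 and 386 in selenium livers and 239, 324 and 469.7 in control livers. The selenium livers lay somewhat lower, with 2 of them below the lowest control, but the ranges overlapped for the most part. The means were 283 ± 69.6 TPM with selenium and 338 ± 77.0 TPM in controls (SD, n = 6 each). The log2 change was -0.26 (SE 0.18), with an interval of -0.65 to 0.13 (limma adjusted p = 0.470). Without control 6 it was -0.36, with an interval of -0.74 to 0.03 (adjusted p = 0.264), and without the 4 libraries high in markers of other cell types it was -0.33. Among the 8 livers with low Dbp it was -0.16, as it was without control 3.

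Gpx1 and Gpx4 made up nearly all of the family's transcripts. The sum of the 7 members was 2321 ± 488 TPM in selenium livers and 2355 ± 391 TPM in control livers (SD, n = 6 each), or 0.232% and 0.236% of all TPM. Gpx1 held 86.5 to 88.9% of the family sum in selenium livers and 80.7 to 87.5% in controls. The 3 cysteine forms together came to 0.69 to 1.65 TPM with selenium and 1.31 to 3.48 TPM in controls. The ratio of Gpx1 to Gpx4 was 6.46 to 8.12 in selenium livers, mean 7.26 ± 0.612, and 4.26 to 7.09 in controls, mean 6.08 ± 1.13. It was lowest in control 5, a library low in Gpx1 and not in Gpx4. These sums and ratios are descriptions and were given no test.

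Across the 12 libraries the levels of Gpx1 and Gpx4 went together. On log2(TPM + 1), Pearson's r was 0.683 (permutation p = 0.0151, adjusted p = 0.0453 over the 3 pairs of tested members) and Spearman's rho was 0.664 (permutation p = 0.0219, adjusted p = 0.0657). Without selenium 1 and 2, the libraries farthest from the median of Gpx1, r was 0.611, and without control 6 it was 0.645. Within the groups r was 0.941 in selenium livers and 0.518 in controls (n = 6 each). Both genes share the library and its scaling, which TPM ties together. Gpx3 and Gpx1 had r = -0.27 (permutation p = 0.426, adjusted p = 0.639) and rho = -0.0699 (permutation p = 0.834, adjusted p = 0.834), and r was -0.413 without selenium 1 and 2. Its sign rested on control 6, without which r was 0.0463, and it was 0.134 within selenium livers and -0.611 within controls (n = 6 each). Gpx3 and Gpx4 had r = -0.00019 (permutation p = 1.0, adjusted p = 1.0) and rho = 0.301 (permutation p = 0.344, adjusted p = 0.516). That value of r rested on selenium 3 and control 6, the libraries farthest from the median of Gpx3, without which it was 0.737; without control 6 it was 0.495, within selenium livers 0.294 and within controls -0.582.

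**Figure D2:**
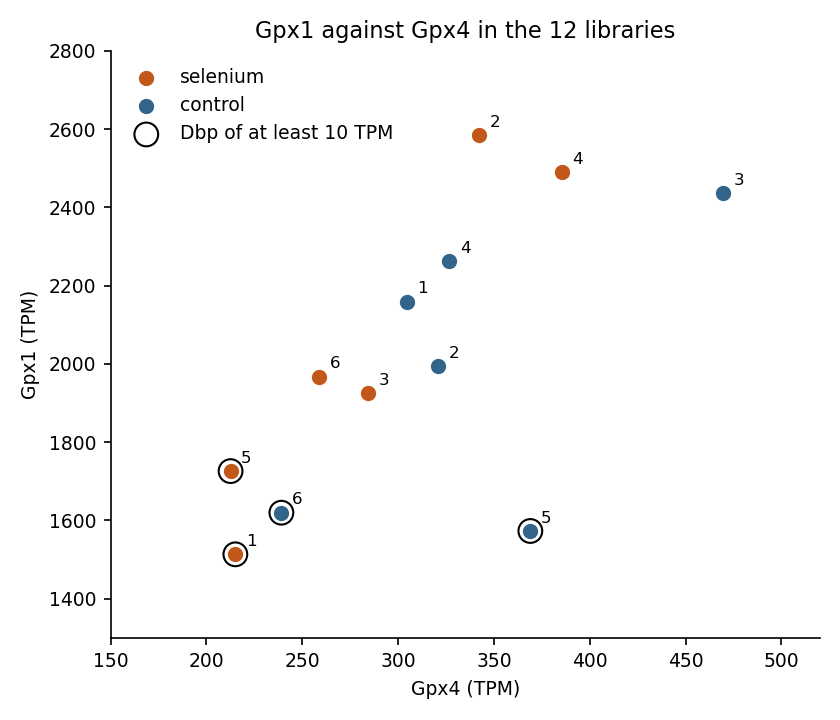
Gpx1 (vertical axis, TPM) against Gpx4 (horizontal axis, TPM), 1 point per liver with its replicate number; the axes do not start at 0. The 4 ringed libraries with at least 10 TPM of Dbp lie lowest on the vertical axis, at 1513 to 1726 TPM, and control 5 lies apart from the trend.

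The genes most like each of these members over the 12 libraries, by Pearson's r of log2(TPM + 1), are given as a description, since each was picked as the highest among all other genes tested. For Gpx1 they were the RNA-binding protein gene Rbpms (r = 0.979, Spearman's rho 0.979), the mitochondrial co-chaperonin gene Hspe1 (r = 0.967, rho 0.916) and the mitochondrial S-adenosylmethionine carrier gene Slc25a26 (r = 0.938, rho 0.923). Without control 6 these values of r were 0.979, 0.968 and 0.933. For Gpx4 they were the small GTPase gene Rhod (r = 0.920, rho 0.860), the pseudogene Gpx4-ps2 (r = 0.915, rho 0.951) and the retinal reductase gene Dhrs3 (r = 0.904, rho 0.888). Without control 6 they were at r = 0.915, 0.914 and 0.896.

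Close relatives in the table bear on how reads were shared out. Gpx4-ps2, a pseudogene of Gpx4, was at 1.61 to 4.09 TPM in selenium livers and 2.34 to 5.57 TPM in controls, with Gpx4 itself 66.3 to 134 times higher per library. Reads of the pseudogene and its parent cannot be separated with certainty, so its level is uncertain. Gpx4-ps1 was listed at 0 in all but selenium 1 (0.15 TPM). Gpx2-ps1 and Gpx5, the epididymal member, were listed at 0 in all 12 libraries. A transcript antisense to Gpx1, named here outside the rule for gene names, was at 0.53 to 1.51 TPM in selenium livers and 0.60 to 1.17 TPM in controls. The sources used here do not say if reads were counted by strand, so reads of Gpx1 and this transcript cannot be told apart.

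Gpx3 encodes the secreted peroxidase of plasma, which is made mainly in kidney. In selenium livers it stood at 1.53, 2.07, 6.69, 1.85, 1.06 and 1.64 TPM in replicates 1 to 6, and in control livers at 2.09, 2.66, 3.72, 3.82, 4.67 and 26.0 TPM. In each group 1 library was far above the rest, selenium 3 and control 6, and the other 5 selenium livers lay below the lowest control. The means were 2.47 ± 2.09 TPM with selenium and 7.16 ± 9.28 TPM in controls (SD, n = 6 each), and without control 6 the control mean was 3.39 ± 1.02 TPM (SD, n = 5). The log2 change was -0.90 (SE 0.45), with an interval of -1.87 to 0.07 (limma unadjusted p = 0.0667, adjusted p = 0.309).

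The value of Gpx3 rested on few libraries. Without control 6 the log2 change was -0.46, with an interval of -1.08 to 0.16 (limma adjusted p = 0.373). Without the 4 libraries high in markers of other cell types, selenium 3 and 6 and controls 5 and 6, it was -0.62, with an interval of -1.03 to -0.22 (unadjusted p = 0.00623, adjusted p = 0.138). Among the 8 livers with low Dbp it was -0.13 (adjusted p = 0.848), with means of 3.06 TPM in 4 selenium libraries and 3.07 TPM in 4 controls. Selenium 3 belongs to those 8 and controls 5 and 6 do not.

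Markers of other tissues and cell types were set beside Gpx3 in these libraries. Beside 26.0 TPM of Gpx3, control 6 held the lung epithelium markers given above, with all 10 markers above 0 there and 5 of the 10 listed at 0 in the other 11 libraries. Selenium 3 had 1.65 TPM of lung markers, 133 TPM of cholangiocyte markers, 68.0 TPM of neutrophil markers and 154 TPM of Kupffer cell markers, the highest sums of the selenium livers in the last 3. Of its cholangiocyte sum 129 TPM were Spp1. The cholangiocyte markers Krt19, Krt7, Epcam and Cftr were instead highest in control 6, and Sox9 was at 2.54 TPM in selenium 3 and 2.74 TPM in control 5. The sum of 6 sinusoidal endothelium markers was highest in the same 2 libraries as Gpx3, at 29.1 TPM in selenium 3 and 36.8 TPM in control 6, against 12.6 to 20.5 TPM in the other selenium livers and 7.48 to 27.0 TPM in the other controls. Of these markers the endothelial adhesion gene Pecam1 was also highest there, at 4.10 and 9.43 TPM, as was Kdr, at 1.83 and 2.54 TPM. Stab2 was highest in selenium 3, at 8.49 TPM, and at 6.01 TPM in control 6. Others did not follow both libraries. Clec4g was at 13.2 and 11.5 TPM, against up to 15.0 TPM elsewhere. Oit3 and Lyve1 were at 0.95 and 0.52 TPM in selenium 3 and at 2.59 and 4.75 TPM in control 6. Elsewhere these 2 reached 2.62 and 0.62 TPM. Control 5, high in the same cholangiocyte and neutrophil sums, had 4.67 TPM of Gpx3, within 1 TPM of control 4. Of 5 kidney proximal tubule markers, Slc34a1, Slc22a6 and Umod were listed at 0 in all 12 libraries, and the sum was 0 to 0.03 TPM in selenium livers and 0 to 0.07 TPM in controls. The adipocyte hormone gene Lep was listed at 0 throughout, and 5 adipocyte markers summed to 0.61 to 2.1 TPM with selenium and 0.71 to 1.55 TPM in controls. The part of other cell types in the level of Gpx3 was not tested.

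**Figure D3:**
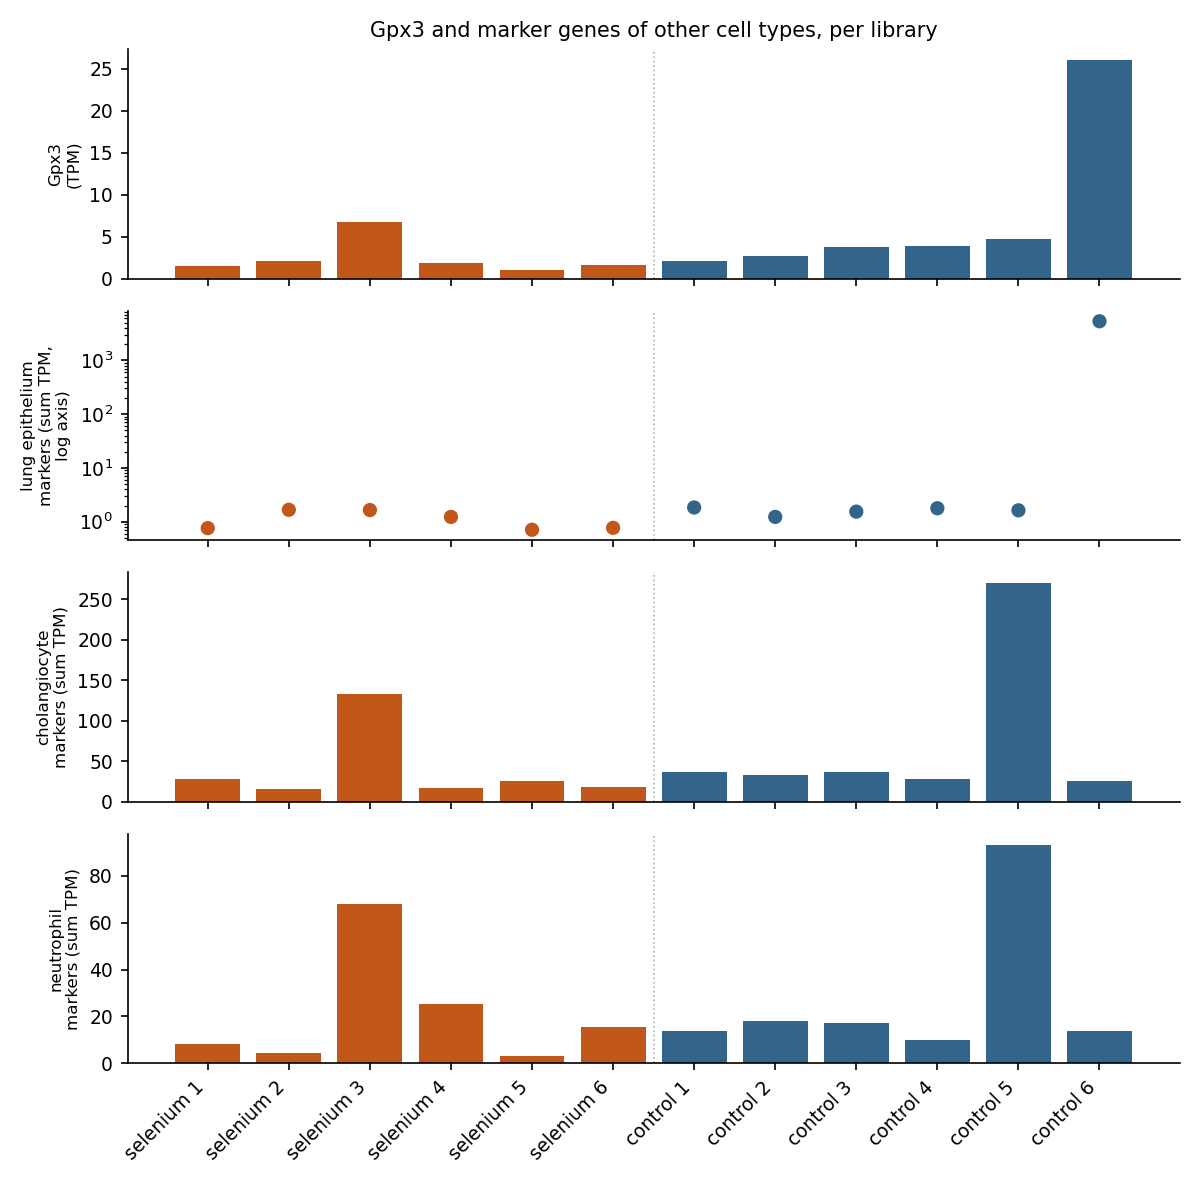
Gpx3 (TPM) and the summed TPM of lung epithelium (log axis), cholangiocyte and neutrophil markers in each library, selenium livers left of the dotted line and controls right. The bar of Gpx3 in control 6, 26.0 TPM, stands over a lung marker sum of 5321 TPM, and that in selenium 3, 6.69 TPM, over a cholangiocyte marker sum of 133 TPM, most of it Spp1. Control 5 has the highest cholangiocyte and neutrophil sums, 269 and 93.2 TPM, under a Gpx3 bar of 4.67 TPM.

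The genes most like Gpx3 over the 12 libraries were the choline transporter-like gene Slc44a2 (r = 0.957, rho 0.841), the spectrin gene Sptbn1 (r = 0.956, rho 0.853) and the actin-severing gelsolin gene Gsn (r = 0.947, rho 0.881). Without control 6 these values of r were 0.850, 0.844 and 0.811. Gsn reached 17.7 TPM, in control 6.

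Gpx8 and Gpx7 encode peroxidases of the endoplasmic reticulum that carry cysteine and work with protein disulfide isomerases. Gpx8 had 0.28, 0.16, 0.82, 0.29, 0.72 and 0.59 TPM in selenium livers 1 to 6, and 0.64, 1.02, 1.52, 0.74, 1.24 and 1.13 TPM in control livers 1 to 6. Of the selenium livers 4 lay below the lowest control and of the controls 4 lay above the highest selenium liver, so the groups overlapped only between 0.64 and 0.82 TPM. The means were 0.477 ± 0.270 TPM with selenium and 1.05 ± 0.325 TPM in controls (SD, n = 6 each). Gpx8 reached 1 TPM in 4 libraries, all controls, and so missed the filter.

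Fitted without a filter over the 26179 genes above 0 in any library, the log2 change of Gpx8 was -0.48 (SE 0.14), with an interval of -0.79 to -0.16. The limma unadjusted p was 0.00650 and the adjusted p 0.229, and the exact permutation p was 0.0130 (n = 6 per group, adjusted p = 0.322). In this fit 1 of the 26179 genes (0.00382%) passed the adjusted threshold while 840 (3.21%) were higher and 2335 (8.92%) lower at an unadjusted p under 0.05. None of the 4 low members passed by adjusted p in limma or in the exact permutation test, and Gpx8 was the 1 member of the 4 with an unadjusted p under 0.05 in either. The exact test cannot give a p below 0.00216, so after adjustment a gene passes it only if very many genes reach that floor. Without control 6 its change was -0.46 (adjusted p = 0.218), and without the 4 libraries high in markers of other cell types it was -0.54 (adjusted p = 0.304).

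Gpx7 had 0.28, 0.59, 0.72, 0.65, 0.36 and 0.44 TPM in selenium livers 1 to 6, and 0.86, 0.53, 1.69, 0.37, 1.80 and 0.37 TPM in control livers 1 to 6. Controls 1, 3 and 5 lay above every selenium liver, while controls 2, 4 and 6 lay among them. The means were 0.507 ± 0.173 TPM with selenium and 0.937 ± 0.652 TPM in controls (SD, n = 6 each). The log2 change without a filter was -0.31, with an interval of -0.73 to 0.12 (limma adjusted p = 0.575). It was -0.19 without control 5, -0.20 without control 3, -0.39 without control 6 and -0.30 without the 4 libraries high in markers of other cell types.

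Both genes were set beside 8 markers of stellate cells and fibroblasts. Those markers summed to 41.2, 19.3, 76.3, 35.7, 47.7 and 34.6 TPM in selenium livers 1 to 6 and to 52.7, 49.2, 58.0, 67.9, 59.8 and 59.0 TPM in controls 1 to 6. Selenium 3 was the highest selenium liver in Gpx8, in Gpx7 and in this sum, and selenium 2 was the lowest in Gpx8 and in the sum. Other libraries did not follow that order. Selenium 2 had 0.59 TPM of Gpx7, above selenium 1, 5 and 6, and control 4, with the highest control sum, had 0.37 TPM of Gpx7, level with the lowest control, and 0.74 TPM of Gpx8. All 8 markers were above 0 in at least 1 library. By group mean the largest part of the sum was Dcn, at 28.9 TPM with selenium and 42.1 TPM in controls. Des was higher with selenium, at 1.16 against 0.893 TPM, and Col3a1 was nearly level, at 5.70 against 5.84 TPM. The remaining markers had lower means with selenium. The part of stellate cells and fibroblasts in the levels of Gpx7 and Gpx8 was not tested.

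**Figure D4:**
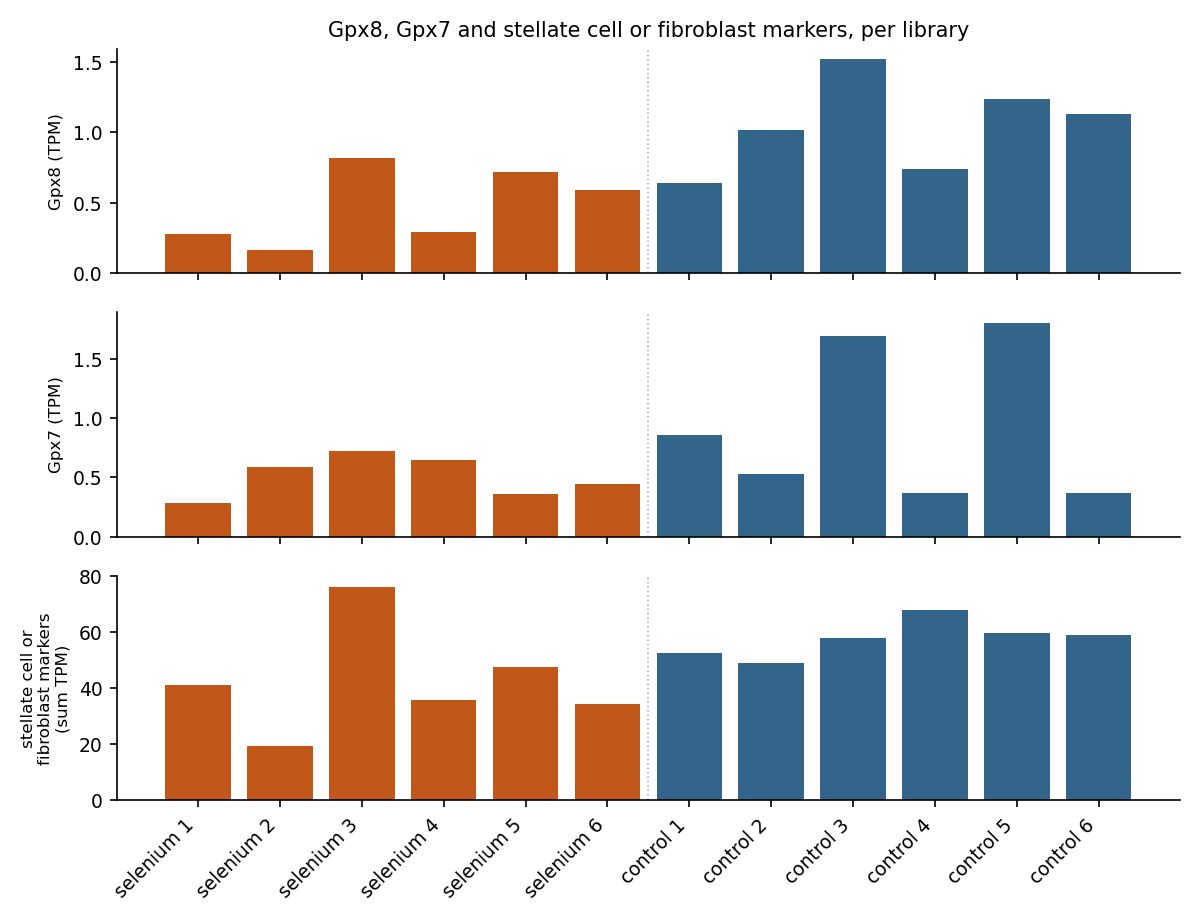
Gpx8 and Gpx7 (TPM) and the summed TPM of 8 stellate cell or fibroblast markers in each library, selenium livers left of the dotted line and controls right. In Gpx8 the selenium livers run from 0.16 to 0.82 TPM and the controls from 0.64 to 1.52 TPM.

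Gpx2 and Gpx6 were near the limit of what the table records. Gpx2, the peroxidase of the gut epithelium, had a lowest, median and highest TPM of 0, 0.065 and 0.21 in selenium livers and of 0, 0.115 and 0.87 in control livers. It was listed at 0 in 2 libraries of each group, and its highest value was again in control 6. The 6 markers of gut epithelium summed to 62.8 to 139 TPM with selenium and 84.8 to 133 TPM in controls, nearly all of it the fatty acid binding gene Fabp2, and control 6 had 109.6 TPM. Of the others, Lgr5 ran from 0.34 to 1.19 TPM, Vil1 from 0 to 0.27 TPM and Muc2 from 0 to 0.02 TPM, the last value in control 6, and Sis and Cdx2 were listed at 0 in all 12 libraries. The part of gut cells in the level of Gpx2 was not tested. The log2 change without a filter was -0.16, with an interval of -0.46 to 0.13, -0.034 without control 6 and -0.030 without the 4 libraries high in markers of other cell types. Gpx6, known from the olfactory epithelium, had 0.04, 0.125 and 0.38 TPM in selenium livers and 0.04, 0.14 and 0.27 TPM in controls. Its log2 change was 0.016, with an interval of -0.13 to 0.16, -0.010 without control 6 and -0.091 without those 4 libraries. The limma adjusted p was 0.661 for Gpx2 and 0.917 for Gpx6.

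**Figure D5:**
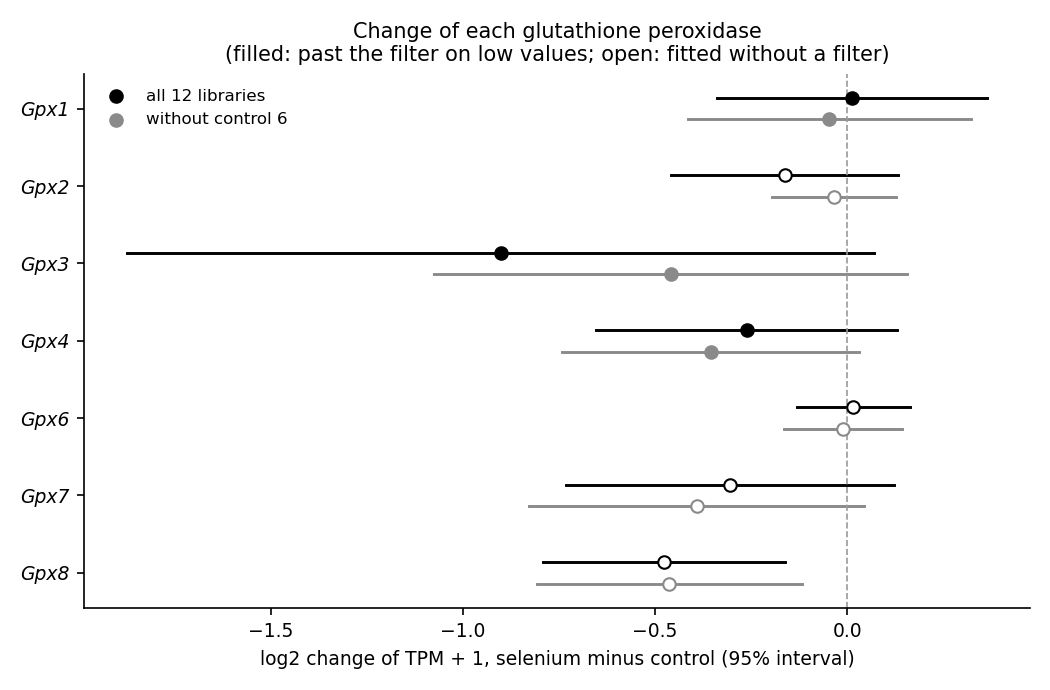
Log2 change of TPM + 1, selenium minus control, with its 95% interval for each member, over all 12 libraries (black) and without control 6 (grey). Filled points passed the filter on low values and open points come from the fit without a filter; of the intervals over all 12 libraries, that of Gpx8, -0.79 to -0.16, does not include 0.

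The authors' deposited table gives its own comparison, as log2 of control over selenium, in which a positive value means lower with selenium. An adjusted p under 0.05 is given to 1231 of 57010 genes (2.16%) by the authors' deposited table, and to none of the 7 members. A positive value with an unadjusted p under 0.05 is given to 1783 genes (3.13%) by the authors' deposited table, Gpx8 and Gpx3 among them. Of the 57010 genes only 26179 were above 0 in any library, so these shares cannot be set beside the limma shares. The authors' deposited table gives Gpx8 a log2 value of 1.13 (p = 0.00950, adjusted p = 0.0824) and Gpx3 a log2 value of 1.51 (p = 0.0187, adjusted p = 0.122). For Gpx4 the authors' deposited table gives 0.20 (adjusted p = 0.569), for Gpx7 0.53 (adjusted p = 0.447), and for Gpx1 -0.19 (adjusted p = 0.490), the last on the side of higher levels with selenium.

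The genes around the peroxidase reaction were described as 7 lists, and in each list 0 tested genes passed in either direction. Over all 9980 genes the median log2 change was -0.026 and 45.4% of changes were positive. Of the genes that make and break down glutathione, 10 of 15 were tested, with 5 positive and 5 negative changes and a median of -0.054. The smallest p belonged to Ggt6, a gamma-glutamyltransferase family gene, at 2.32 ± 0.656 TPM with selenium and 3.61 ± 0.639 TPM in controls (log2 change -0.49), and to Chac2, which cleaves glutathione, at 19.2 ± 4.87 and 27.2 ± 6.28 TPM (log2 change -0.49). Their limma adjusted p values were 0.121 and 0.186.

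Genes that reduce oxidized glutathione and supply NADPH gave 13 positive and 4 negative changes among 17, with a median of 0.062. Gsr, the glutathione reductase that returns the peroxidases' cofactor to its reduced state, averaged 20.8 ± 7.29 TPM with selenium and 11.4 ± 3.94 TPM in controls (SD, n = 6 each). Its groups overlapped, at 10.7 to 32.4 TPM and 6.63 to 17.3 TPM, and its log2 change of 0.80 (interval 0.27 to 1.33) had a limma adjusted p of 0.129. H6pd, which makes NADPH in the endoplasmic reticulum, had a log2 change of 0.39 (adjusted p = 0.258).

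The other peroxide-removing enzymes, catalase, the peroxiredoxins and their partners, gave 7 positive and 6 negative changes among 13, with a median of 0.0074 and a range of -0.48 to 0.10. The thioredoxin gene Txn1 was at 153 ± 29.6 TPM with selenium and 213 ± 62.7 TPM in controls, and the microsomal glutathione transferase gene Mgst3 at 7.24 ± 2.54 and 10.3 ± 3.17 TPM (limma adjusted p = 0.242 and 0.258). Enzymes that form hydrogen peroxide gave 8 positive and 8 negative changes among 16, with a median of 0.0023. In that list the peroxisomal oxidase gene Acox3 was at 5.53 ± 1.44 TPM with selenium and 3.56 ± 0.637 TPM in controls, and Ero1b, an oxidase of protein folding in the endoplasmic reticulum, at 12.6 ± 1.99 and 9.54 ± 1.46 TPM (limma adjusted p = 0.121 and 0.158).

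Genes of lipid peroxidation and ferroptosis, the processes that Gpx4 opposes, gave 6 positive and 10 negative changes among 16, with a median of -0.041. The smallest p there belonged to Sat1, of polyamine breakdown (log2 change -0.37, limma adjusted p = 0.245), and to the heme oxygenase gene Hmox1 (log2 change 0.44, adjusted p = 0.499). Genes that make and insert selenocysteine gave 6 positive and 6 negative changes among 12, with a median of -0.030. In that list Secisbp2l, a homologue of the factor that binds selenocysteine insertion elements, was at 4.22 ± 0.810 TPM with selenium and 5.79 ± 0.500 TPM in controls. Its groups did not overlap, at 2.96 to 5.20 TPM and 5.22 to 6.60 TPM, as in 147 of the 9980 genes (1.47%) that lay lower with selenium, and its log2 change of -0.39 had a limma adjusted p of 0.125. The seryl-tRNA synthetase gene Sars had a log2 change of 0.33 (adjusted p = 0.245).

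Beside the selenocysteine members of the family, the 16 other selenoprotein genes that were tested had a median of 0.069, with 9 positive and 7 negative changes and a range of -0.44 to 0.48. The smallest p belonged to the methionine sulfoxide reductase gene Msrb1 and the thioredoxin reductase gene Txnrd1, at 0.39 (limma adjusted p = 0.163) and 0.48 (limma adjusted p = 0.168). The difference between these genes and Gpx1, Gpx3 and Gpx4 was not tested.

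Without control 6, and without the 4 libraries high in markers of other cell types, 0 genes of each of the 7 lists passed. The 14 genes named from the lists kept the sign of their log2 change. They had been picked for the smallest p over all 12 libraries, and the refits share most of these, so a kept sign is no independent check. Some other list genes changed sign without the 4 libraries, such as Slc40a1 from 0.25 to -0.12 and Tkt from -0.20 to 0.035. Without the 4 libraries 5 of the 14 had a change more than 1.5 times smaller. These were Acox3 at 0.30, H6pd at 0.13, Hmox1 at 0.092, Mgst3 at -0.25 and Txnrd1 at 0.29. Gsr was at 0.92 without control 6 (limma adjusted p = 0.0633) and at 0.55 without the 4 libraries (limma adjusted p = 0.250). Secisbp2l was at -0.40 without control 6 and at -0.47 without the 4 libraries. In some lists the counts of positive and negative changes moved as well. Genes that reduce oxidized glutathione and supply NADPH gave 12 and 5 without control 6, and 11 and 6 without the 4 libraries. Enzymes that form hydrogen peroxide gave 9 and 7, then 6 and 10. Genes of lipid peroxidation and ferroptosis gave 5 and 11, then 4 and 12.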

How the data were processed

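Liver RNA of 12 mice was sequenced, 6 given the selenium-enriched fungus and 6 untreated. Per the labels' protocols, RNA was isolated with TRIzol and an RNeasy column, and libraries followed Illumina procedures. The GRCm39 build and the tools DESeq2, HISAT2 2.1.0 and RSEM 1.2.8 are named per the submitters' processing notes, without their roles. The authors deposited TPM per gene and library, and TPM keeps no sequencing depth, so counting error is unknown and precision rests on the spread between mice. The deposited series table equalled the single-library tables in 100% of values. The authors' log2 fold change of control over selenium and the authors' p-value columns, raw and adjusted, are their own; the test behind them is not stated.

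Genes with at least 1 TPM in 6 or more of the 12 libraries were fitted with limma 3.58.1 (R 4.3.3) on log2(TPM + 1), a two-sided test with a mean-variance trend and no covariate, and p was adjusted by Benjamini-Hochberg over all 9980 genes, with a threshold of 0.05. Members under the filter were fitted with all 26179 genes above 0 in any library. The exact permutation test ran over all 924 labellings, and correlations used 100000 permutations (scipy 1.17.1). The model was tested on simulated data. Coding sequences came from GENCODE M21.

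The members and lists were chosen with earlier results of these data known. Named genes were the 7 members and family relatives, the 3 genes most correlated with each tested member (clone and prediction names left out), and the 2 genes with the smallest p in each list. The marker lists, 13 in all, cover liver cell types, blood, adipocytes, pancreas, gut, kidney and lung; the lung list was added after the values were seen. The lymphocyte list, not named in the results, summed to 0.82 to 4.22 TPM with selenium and 3.16 to 5.18 TPM in controls. Replicate numbers name mice. Alternatives were other pseudocounts, filters and scalings, limma without the trend, the exact test, a replicate block, leaving out libraries and only livers with low Dbp. Leaving out the 4 libraries high in a marker list (at least 10 TPM and over 3 times its median) was chosen after seeing the data, as was refitting the pathway lists without control 6 and without those 4.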

Additional observations from a re-analysis of the deposited data

Results flagged for a closer look

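In 39 groups of 6 libraries, each holding a member, a relative or a sum or ratio of them, the highest and the lowest value were compared with the nearest other value, and a gap above the 95% limit of Dixon's test was noted. Chance marks about 1 in 20 such groups. Gpx3 in selenium 3 stood at 6.69 TPM, against 1.06 to 2.07 TPM in the other selenium livers. Gpx3 in control 6 stood at 26.0 TPM, against 2.09 to 4.67 TPM in the other controls. Gpx2 in control 6 stood at 0.87 TPM, against 0 to 0.28 TPM in the other controls. Gpx4-ps1 was at 0.15 TPM in selenium 1 and was listed at 0 in the other selenium livers; with 5 values at 0 any other value would be marked, so the chance of 1 in 20 does not apply to it. Control 6 is the library with 5321 TPM of lung epithelium markers, and the part of those cells in its values of Gpx2 and Gpx3 was not tested.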

How the results depend on the processing

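None of the 7 members passed the adjusted threshold under any alternative run. Gpx3, Gpx4, Gpx2, Gpx7 and Gpx8 kept a negative log2 change throughout; with 1 library left out they ran from -1.16 to -0.46, -0.36 to -0.16, -0.22 to -0.034, -0.39 to -0.19 and -0.54 to -0.41, and with a pseudocount of 0.1 they were -1.15, -0.26, -0.54, -0.58 and -1.09, since a smaller pseudocount shrinks low values less. Gpx1, at 0.012, turned to -0.085 with TPM rescaled without mitochondrial-encoded genes. In that setting the median log2 change of all genes tested was -0.109, against -0.026 without the rescaling. Gpx1 also turned to -0.12 without the 4 libraries high in markers, and ran from -0.062 to 0.092 with 1 library left out. Gpx6, at 0.016, turned to -0.022 in livers with low Dbp and to -0.091 without those 4 libraries, and ran from -0.035 to 0.047. The cause was not tested.

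Over all genes, 2 were higher and 31 lower; the counts ran from 0 to 56 higher and 7 to 115 lower with 1 library left out, the highest of both without control 6. They were 1 higher with a pseudocount of 0.1 or a filter of 5 TPM, 53 higher with median-of-ratios scaling, 10 lower with quantile normalization, 6 and 184 with TPM rescaled without mitochondrial-encoded genes, 34 and 13 in livers with low Dbp, 5 and 20 without the 4 libraries, 0 and 1 with no filter, and 0 and 0 by the exact permutation test. The smallest p that the exact test can give, 0.00216, passes after adjustment only if very many genes reach it. Same-numbered libraries did not pair, as their deviations correlated at -0.136 to 0.107, and the replicate block gave 0 higher and 3 lower genes, with an adjusted p of 0.296 for Gpx3 and 0.315 for Gpx8. TPM hold no depth, so how far counting error limits Gpx2, Gpx6, Gpx7 and Gpx8 is unknown.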
